A study of Mus musculus with 18 samples.

Results

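The genes described here encode chemokines and chemokine receptors. They are the symbols of the count table that start with Ccl, Cxcl, Ccr or Cxcr followed by a number, together with Cx3cl1, Cx3cr1 and Xcl1. Of 24062 symbols, 57 had such a name, and 50 of these (33 ligands and 17 receptors) reached 0.2 CPM (the counts of a gene scaled to a fixed library depth of 1e6 counts) in at least 3 of the 18 libraries. Ccl21a, Ccl21b, Ccl21c and Ccl27b, which belong to families of near-identical copies, had no count in any library. Cxcl3 was just outside the limit, with 2 libraries at it, and Ccl26 and Ccr1l1 had none. Ccr3, with 3 libraries, and Ccl1, with 4, were the members just inside.

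Chemokines are small secreted proteins that draw leukocytes along a gradient, and their receptors are G protein-coupled receptors on the surface of those leukocytes. Inflammatory chemokines are switched on by cytokines, microbial products and tissue damage, largely through NF-kappaB, and the ligands of Cxcr3 also by interferons. Homeostatic chemokines such as Cxcl12, Cxcl13 and Ccl19 are made constantly and place lymphocytes and stem cells in tissues. In liver, Kupffer cells, endothelium, stellate cells, bile duct cells and hepatocytes can all be sources.

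RNA was sequenced from whole liver, kidney and lung of C57BL/6 mice of 2 genotypes. CCNE-TA mice carried a tetracycline-inducible Ccne1 gene, which encodes cyclin E1, together with rtTA, the activator that works in the presence of doxycycline, and TA mice carried rtTA alone. Both genotypes received doxycycline from the age of 3 weeks until they were killed at 4 months, so the controls share the activator and the drug. There were 3 libraries for each genotype in each tissue, 6 groups in all. The promoter that drives rtTA, the sex of the mice and whether libraries of different tissues came from the same animals are not given in the sources used here, and p-values therefore measure the spread between these libraries.

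Libraries held 26214869 to 61954486 counts in liver, 20352770 to 43202066 in kidney and 41597623 to 155323865 in lung, and a count of 3 equals 0.0193 to 0.147 CPM, which covers counting error only. Ccne1 stood at 2.05 to 2.82 CPM in TA and 210 to 353 CPM in CCNE-TA liver, at 1.57 to 2.58 and 485 to 897 CPM in kidney, and at 1.04 to 6.02 and 65.7 to 125 CPM in lung, with an exact permutation p of 0.1 in each tissue, the smallest that 3 against 3 allows. By edgeR across all genes its adjusted p was 0.00012 in liver, 7.87e-05 in kidney and 0.897 in lung, so in lung even the transgene's own gene did not pass the threshold. By Xist and the Y-linked Ddx3y, 1 TA and 2 CCNE-TA liver libraries were female, against 2 and 2 in kidney and in lung. Each tissue expressed its own markers, with a summed level of 91600 to 166000 CPM for 8 hepatocyte genes in liver, 20500 to 75600 CPM for 8 tubule genes in kidney and 49500 to 129000 CPM for 8 epithelial genes in lung. Lung CCNE-TA 1 had the most counts of all libraries and the lowest epithelial sum, and lung TA 3 had a hepatocyte sum of 2400 CPM against 62.1 to 664 CPM in the other lung libraries. In liver, 6 genes of pancreas acini summed to 22.7 to 192 CPM in TA and 9.14 to 14.3 CPM in CCNE-TA.

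Most of the genes sit close to their relatives. In GENCODE M21 on mm10, 33 of the 50 lie in 9 clusters with gaps of at most 1 Mb, and 17 lie alone. The ligands of Cxcr3 (Cxcl9, Cxcl10 and Cxcl11) occupy chromosome 5 from 92321347 to 92365485, and Cxcl5, Cxcl15, Cxcl1 and Cxcl2 lie on the same chromosome from 90759360 to 90905938. Ccl2, Ccl7, Ccl11, Ccl12, Ccl8 and Ccl1 share chromosome 11 from 82035571 to 82305690, and Ccl5, Ccl9, Ccl6, Ccl3 and Ccl4 share it from 83525778 to 83664683. The receptor genes Ccr9, Cxcr6, Ccr1, Ccr3 and Ccr2 lie together on chromosome 9. The library kit does not mark strand, so reads of overlapping genes on opposite strands cannot be told apart. Such overlap covers 41.7% of the exons of Cxcl11 (with Gm2673), 18.3% of Cxcl16 (with Zmynd15), 5.9% of Cxcl10 (with Art3) and 3.3% of Cxcr5 (with Bcl9l), and their values carry that uncertainty. Ccl27a also has near-identical copies, between which reads may be split.

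The 250 bases before the start of 5 members that were called in the comparison of CCNE-TA with TA liver are shown, because Cxcl10, Cxcl14 and Ccl17 had a searched motif in these bases, next to Cxcl9 and Cxcl12, which had none. The sequences are from RefSeq on GRCm38.p6, on the strand of the gene and from 5′ to 3′, with motif matches in capitals. They lie at chr5:92348890-92349139 (Cxcl10, minus strand), chr5:92328080-92328329 (Cxcl9, minus), chr13:56296552-56296801 (Cxcl14, minus), chr8:94810203-94810452 (Ccl17, plus) and chr6:117168285-117168534 (Cxcl12, plus).
Cxcl10: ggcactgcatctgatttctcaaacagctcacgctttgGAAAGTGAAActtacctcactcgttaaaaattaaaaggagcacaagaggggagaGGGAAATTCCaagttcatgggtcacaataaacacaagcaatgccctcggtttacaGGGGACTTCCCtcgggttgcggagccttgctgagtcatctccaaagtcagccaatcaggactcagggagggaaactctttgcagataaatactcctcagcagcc
Cxcl9: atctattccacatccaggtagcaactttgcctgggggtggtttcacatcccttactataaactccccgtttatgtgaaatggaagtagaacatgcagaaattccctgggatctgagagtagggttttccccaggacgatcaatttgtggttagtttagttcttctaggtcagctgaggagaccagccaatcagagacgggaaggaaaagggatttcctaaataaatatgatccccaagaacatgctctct
Cxcl14: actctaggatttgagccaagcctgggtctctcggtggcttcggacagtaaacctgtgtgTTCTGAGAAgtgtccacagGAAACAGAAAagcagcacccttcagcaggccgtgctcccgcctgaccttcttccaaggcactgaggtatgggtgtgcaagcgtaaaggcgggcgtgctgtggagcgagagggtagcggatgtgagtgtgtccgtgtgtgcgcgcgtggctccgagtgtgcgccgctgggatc
Ccl17: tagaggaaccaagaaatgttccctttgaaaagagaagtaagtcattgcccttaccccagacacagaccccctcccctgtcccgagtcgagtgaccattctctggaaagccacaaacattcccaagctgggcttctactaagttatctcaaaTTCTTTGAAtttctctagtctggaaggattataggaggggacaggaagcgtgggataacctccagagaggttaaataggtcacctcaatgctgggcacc
Cxcl12: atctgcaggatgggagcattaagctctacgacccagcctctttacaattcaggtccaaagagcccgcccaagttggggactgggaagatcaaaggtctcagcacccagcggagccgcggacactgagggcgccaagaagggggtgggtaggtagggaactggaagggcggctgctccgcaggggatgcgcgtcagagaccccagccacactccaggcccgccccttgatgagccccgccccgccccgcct

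Cxcl10 carried an interferon-stimulated response element (GAAANNGAAA) starting at position -213 and NF-kappaB consensus matches at -159 and, overlapping each other, at -104 and -103, counted from the transcription start. Cxcl14 had the interferon element at -172, and an interferon-gamma activated site (GAS, TTCNNNGAA) lay at -191. Ccl17 had a GAS match at -99. The RefSeq window of Ccl19, a called member, also held an interferon element, but most of that window lies inside the gene as GENCODE M21 draws it, so it is not shown as upstream sequence. Both strands of 300-base windows, with 50 bases after the start, were searched in 40 windows of 36 member genes and in 32851 windows of all genes, and matches may overlap. The interferon element was found in 7.5% of the member windows and 3.44% of all windows, GAS in 7.5% and 8.3%, and the NF-kappaB consensus in 25% and 8.46%. Of the other called members with a window, Ccl8 and Ccr2 had no match, and Ccl27a had 1, an NF-kappaB match at +31 of 1 of its windows.

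In the control mice, lung had the highest level of 30 of the 50 members, liver of 13 and kidney of 7. The same split over all genes is not given here, and some members rest on few counts, such as Ccr8 with 2 in TA liver. The split is therefore not read as a trait of these genes. Levels between genes were compared as CPM per kilobase of exon, with the 18 libraries scaled together. Lung was dominated by Cxcl15 (lungkine, an epithelial chemokine for neutrophils) at 399 ± 62.7 CPM per kb (SD, n = 3 here and for the other levels), followed by Cxcl17, a mucosal chemokine, at 64.1 ± 20.2 and Ccl6, a myeloid chemokine, at 57.0 ± 6.68. Liver was led by Cxcl12, the ligand of Cxcr4, at 58.5 ± 9.33 and Ccl9, a ligand of Ccr1, at 31.3 ± 8.51. Cxcl1, which attracts neutrophils, came next in liver at 16.3 ± 24.3, a mean that rests on 1 library, since its values ran from 1.1 to 44.4. Kidney was led by the membrane-bound chemokine Cx3cl1 at 20.7 ± 0.883, Cxcl12 at 17.6 ± 4.06 and Cxcl14 at 16.8 ± 1.4 CPM per kb. Within kidney these means differed by less than the spread of Cxcl12, and Cxcl16 stood at 16.8 ± 2.01. The order of close members also depended on the length used: per kb of the longest transcript, Ccl6 at 71.1 stood above Cxcl17 at 64.1 in lung, and Cxcl12 at 25.5 above Cx3cl1 at 24.5 in kidney, followed by Cxcl16 at 18.8.

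**Figure D1:**
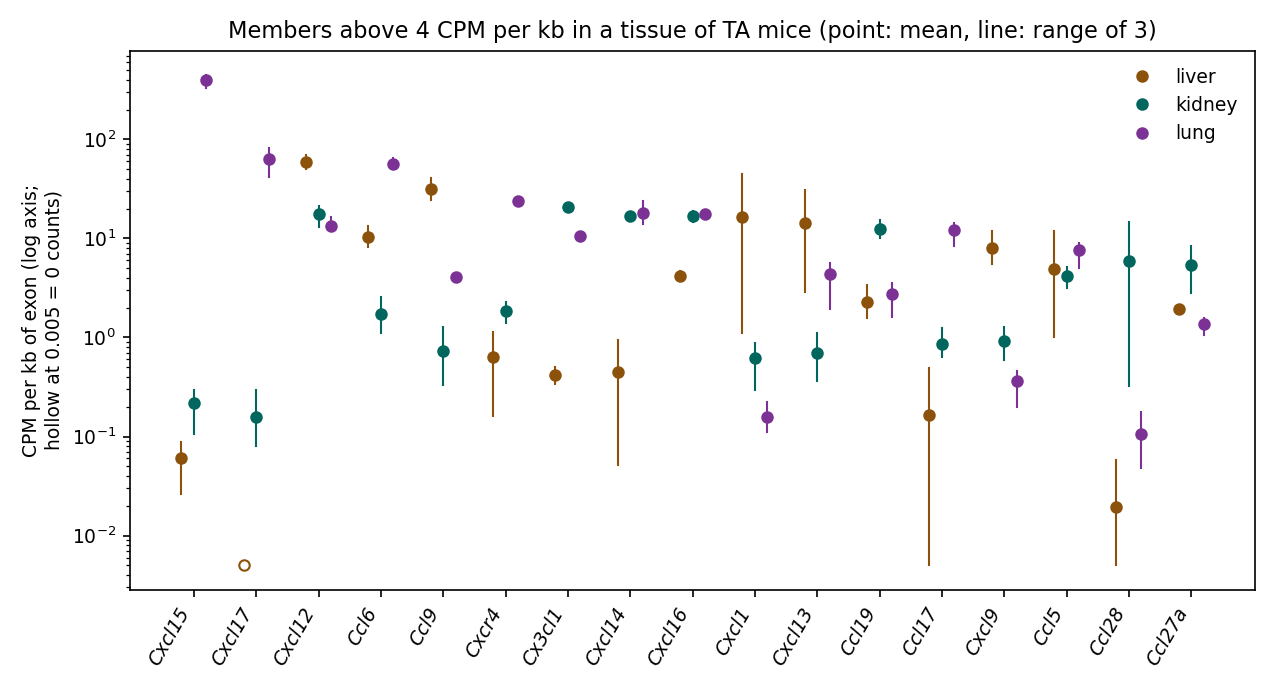
Levels of the 17 members that reached 4 CPM per kb of exon in at least 1 tissue of TA mice, on a log axis, with the mean as a point and the range of 3 libraries as a line. Cxcl15 and Cxcl17 stand highest in lung, Cxcl12 and Ccl9 in liver, and Cx3cl1 in kidney, and the line of Cxcl1 in liver runs from 1.1 to 44.4.

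Between tissues of TA mice, 47 members were tested by edgeR in 1 fit of the 9 libraries. Against kidney, liver had 9 members higher (30.5% of all genes tested) and 13 lower (34.5%), and lung had 19 higher (31.3%) and 8 lower (29.3%). Against liver, lung had 23 higher (36.9%) and 9 lower (34.7%). The shares of members were thus above those of all genes for the lung rises, and below them for the falls in lung and for both directions in liver against kidney.

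The ligands with a membrane stalk were low in liver. Cx3cl1, the ligand of Cx3cr1, was lower in liver than in kidney by a log2 difference of -5.64 ± 0.19 (SE, adjusted p = 5.45e-08) and in lung than in kidney by -0.98 ± 0.15 (adjusted p = 0.00034). Cxcl16, the ligand of Cxcr6, was lower in liver than in kidney (-2.00 ± 0.16), whereas the lung to kidney difference was 0.05 ± 0.15 (adjusted p = 0.769). Cxcl14 was lower in liver than in kidney (-5.24 ± 0.61). Liver exceeded kidney for Ccl9 (5.38 ± 0.45, adjusted p = 5.44e-06) and Ccl6 (2.57 ± 0.30, adjusted p = 4.26e-05).

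Lung exceeded kidney for Cxcl15 (10.81 ± 0.47), Cxcl17 (8.75 ± 0.50), Ccl6 (5.03 ± 0.33), Ccl22, a dendritic cell product (4.18 ± 0.63), and Cxcr4, the receptor of Cxcl12 (3.70 ± 0.46), with adjusted p of at most 0.000278. Cxcl17 had no count in the 3 TA liver libraries and was at least 3527-fold higher in lung, with 3 counts over the group as the limit in liver, a bound that would be lower if both reads of a pair were counted. Cxcl15 had 9 counts in all TA liver libraries together. Cxcl9, a ligand of Cxcr3, was lower in lung than in liver (-4.44 ± 0.47, adjusted p = 1.32e-05).

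In liver, some of the ligands that attract T cells, monocytes and dendritic cells were called higher in CCNE-TA than in TA mice, and Cxcl12 was called lower. Of the 50 members, 34 passed the filter on low counts and were tested, 11 of them rose and 1 fell at an adjusted p under 0.05 by edgeR's quasi-likelihood test. Over all 13811 genes tested, 13.7% rose and 14.8% fell. The median log2 fold change of the 34 was 1.32 against 0.02 for all genes, and 30 of 34 lay above 0. In 17 members every CCNE-TA library lay above every TA library (23.2% of all genes), and in 2 members, Cxcl12 and Ccl6, every one lay below (24.7%). CCNE-TA 1 was the highest of the 6 libraries in 15 members (14.5% of all genes). Of 23 tested ligands 9 rose, and of 11 tested receptors 2 rose, with median log2 fold changes of 1.39 and 1.09. A difference between ligands and receptors was not tested. The filter can pass a gene through the libraries of a single group. Ccl8 and Ccl17, with 8 and 9 counts in all TA libraries, passed through CCNE-TA, which favours a rise. Without the filter, all 50 members were tested, and 8 rose (9.24% of all genes) and 1 fell. The median of the 50 was then 1.13 against 0.14 for all genes, and 41 lay above 0. Because the tissue was whole liver, more RNA per cell and more cells of a type cannot be told apart.

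**Figure D2:**
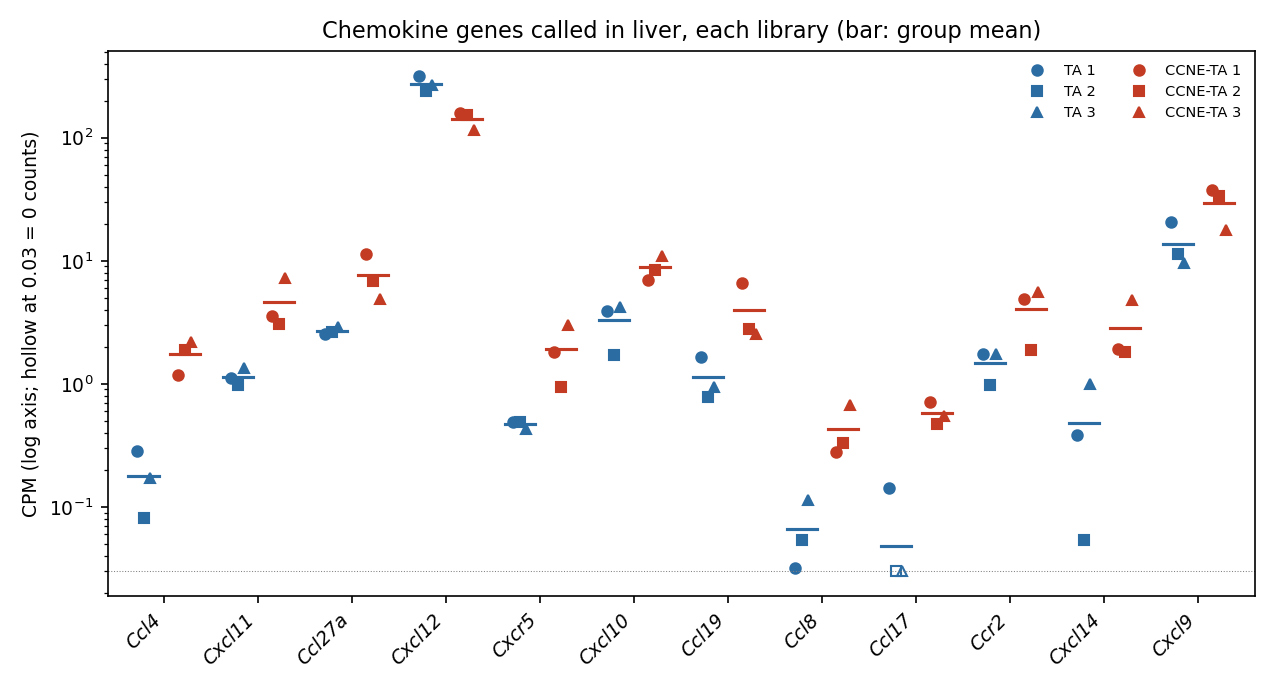
CPM of the 12 members called in liver, in each library, on a log axis, blue for TA and red for CCNE-TA, and group means as bars (n = 3 per group). Red lies above blue without overlap for each gene except Cxcl12, which is lower, and Cxcl9, where CCNE-TA 3 at 17.9 CPM falls below TA 1 at 20.5 CPM.

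The 3 genes of the ligands of Cxcr3, the receptor of activated T and NK cells, were called higher in liver in its own fit, and none of them in the fit of all 18 libraries. Cxcl9 stood at 20.5, 11.3 and 9.64 CPM in TA 1 to 3 and at 37.7, 33.5 and 17.9 CPM in CCNE-TA 1 to 3. The groups overlapped at CCNE-TA 3, and the log2 fold change was 1.10 ± 0.36 (SE, adjusted p = 0.0498). Cxcl10, whose promoter is the one above with 3 NF-kappaB matches, was at 3.9, 1.7 and 4.24 CPM in TA and 7.01, 8.49 and 11 CPM in CCNE-TA. There was no overlap, with a log2 fold change of 1.43 ± 0.37 (adjusted p = 0.0239). Cxcl11 was at 1.11, 0.973 and 1.34 CPM in TA and at 3.53, 3.05 and 7.21 CPM in CCNE-TA, again without overlap (2.01 ± 0.40, adjusted p = 0.011). GENCODE M21 annotates Cxcl11 as a polymorphic pseudogene. In 1 fit of all 18 libraries, whose spread is shared with kidney and lung, 5 of the 12 liver calls were lost, among them Cxcl9 (1.09, adjusted p = 0.573), Cxcl10 (1.41, adjusted p = 0.34) and Cxcl11 (1.98, adjusted p = 0.123). The common fit called 3 others, Ccl11, Ccl5 and Cx3cl1. It had 9 of 49 tested members raised and 1 lowered in liver, against 17.0% and 15.3% of all genes, so the raised count lay near the background there. The receptor Cxcr3 itself had a log2 fold change of 0.78 ± 0.53 (adjusted p = 0.293).

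Of Ccl3, Ccl4, Ccl5, Ccl6 and Ccl9, neighbours on chromosome 11 that attract monocytes, macrophages and T cells, 1 of 5 rose. Ccl4 (MIP-1 beta) was at 0.286, 0.0811 and 0.171 CPM in TA and at 1.17, 1.9 and 2.18 CPM in CCNE-TA liver. The lowest CCNE-TA library was several times the highest TA library, and the log2 fold change was 3.21 ± 0.56 (adjusted p = 0.00765). Its neighbour Ccl3 (1.96 ± 0.73, adjusted p = 0.0741) and Ccl5 (2.53 ± 0.94, adjusted p = 0.0923) did not pass the threshold, although neither overlapped between the groups. Ccl5 stood at 6.43, 0.973 and 0.569 CPM in TA and 9.62, 15.5 and 21.9 CPM in CCNE-TA, so TA 1 alone was near the CCNE-TA range. Ccl6 had values of 13.6, 8.46 and 9.95 CPM in TA and 6.04, 5.89 and 7.51 CPM in CCNE-TA (-0.72 ± 0.25, adjusted p = 0.0586), the opposite direction to the other 4. Ccl9 had a log2 fold change of 0.80 ± 0.40 (adjusted p = 0.166).

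Of the ligands of Ccr2, the receptor of inflammatory monocytes, 2 of 4 were tested and 1 rose. Ccl8 was at 0.0318, 0.054 and 0.114 CPM in TA, 8 counts in all, and at 0.279, 0.328 and 0.675 CPM in CCNE-TA. These values are near the detection floor but do not overlap (2.70 ± 0.73, adjusted p = 0.0277). Ccl2 gave 1.39 ± 0.61 (adjusted p = 0.119). The receptor Ccr2 rose, from 1.74, 0.973 and 1.76 CPM to 4.85, 1.88 and 5.55 CPM (1.45 ± 0.46, adjusted p = 0.0456). Its CCNE-TA 2 value of 1.88 lies only just above the highest TA library.

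Ligands of dendritic and lymphoid cells were also among the rises. Ccl17, a dendritic cell product read by Ccr4, was at 0.143, 0 and 0 CPM in TA, 9 counts in all, and 0.711, 0.469 and 0.552 CPM in CCNE-TA (3.24 ± 0.97, adjusted p = 0.0385). Ccl22, the other ligand of Ccr4, had 1.28 ± 0.66 (adjusted p = 0.173). Ccl19, which guides dendritic cells and T cells through Ccr7, was at 1.66, 0.783 and 0.938 CPM in TA and 6.58, 2.79 and 2.52 CPM in CCNE-TA. It did not overlap, and CCNE-TA 1 was the highest (1.80 ± 0.48, adjusted p = 0.0273). Cxcr5, the receptor of B cells and follicular helper T cells for Cxcl13, was at 0.493, 0.486 and 0.426 CPM in TA and 1.8, 0.938 and 3.01 CPM in CCNE-TA (2.02 ± 0.50, adjusted p = 0.0214). Its ligand Cxcl13 had 20, 1.89 and 6.17 CPM in TA and 7.77, 1.74 and 1.66 CPM in CCNE-TA, which overlap (-1.33 ± 1.0, adjusted p = 0.355).

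Epithelial and stromal chemokines moved in both directions. Ccl27a, a ligand of Ccr10 known from skin, was at 2.55, 2.62 and 2.87 CPM in TA and 11.3, 6.85 and 4.91 CPM in CCNE-TA, without overlap (1.52 ± 0.33, adjusted p = 0.0142). Cxcl14, an epithelial chemokine, was at 0.382, 0.054 and 0.995 CPM in TA and 1.93, 1.83 and 4.82 CPM in CCNE-TA (2.59 ± 0.82, adjusted p = 0.0466). Cxcl12, made by endothelium and stroma and the most abundant member of the TA liver, fell. It went from 320, 238 and 268 CPM in TA to 160, 153 and 115 CPM in CCNE-TA, with no overlap (-0.95 ± 0.23, adjusted p = 0.0184). Cxcl1 ranged from 1.19 to 48.6 CPM in TA and from 6.54 to 166 CPM in CCNE-TA (1.81 ± 1.95, adjusted p = 0.529), the widest spread of a tested member in liver by SE. Cxcl2 and Cxcl5, its relatives, did not pass the filter there.

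Of the 17 receptors, 11 were tested in liver and 2 rose, Ccr2 and Cxcr5. Cx3cr1, the receptor of Cx3cl1 on monocytes and tissue macrophages, had 1.38, 0.973 and 0.426 CPM in TA and 3.63, 1.78 and 2.48 CPM in CCNE-TA. It missed the threshold without overlap (1.49 ± 0.49, adjusted p = 0.0522). Without the adjustment, 20 of 34 members had a p under 0.05 in liver (18 higher and 2 lower), against 42.8% of all genes tested. DESeq2 called 14 raised and 2 lowered, against 17.9% and 18% of all genes.

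The liver count depended on single libraries, while the median over the members stayed between 1.09 and 1.47 in the 6 fits that left out 1 library. Without TA 2 it was 2 raised and 1 lowered, without TA 3 it was 4 and 0, and without CCNE-TA 1 it was 2 and 0, in fits that also called fewer genes overall (5.3%, 4.46% and 5.57% raised). Without CCNE-TA 3 the count was 6 raised (9.79% of all genes), and without TA 1 it was 9 (8.29%). The 1 lowered call was lost without TA 1, TA 3 or CCNE-TA 1. Ccl4 and Cxcl11 stayed called in each of the 6 fits, and Ccl4 in all 16 alternatives, with log2 fold changes of 2.58 to 3.75 and adjusted p up to 0.0375. With Xist as a covariate, 6 members were raised (10.6% of all genes), while the median was 1.25. Of the 12 calls, 10 were lost without CCNE-TA 1, 9 without TA 2 and 9 without TA 3, with adjusted p without CCNE-TA 1 of 0.0509 for Cxcl10 to 0.155 for Cxcl9.

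Transcript length moved with the liver effect over all genes. The median log2 fold change in liver was 0.93 for genes with under 1000 nucleotides of exon and -0.31 for those above 8000, and the tested members were short, with a median of 2120 nucleotides against 4330 for all genes. With offsets for length and GC content, 9 members were raised and 1 lowered (10.6% and 13.6% of all genes). The median was 0.97 against -0.05 for all genes. Ccl6 was then the lowered member, and the calls of Cxcl12, Cxcl14, Ccl8, Ccl17 and Ccl19 were lost.

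Leukocyte markers in liver moved unevenly with genotype, where 13.7% of all genes tested rose and 14.8% fell. Dendritic cell markers had a summed level of 30.9 to 45.2 CPM in TA and 70.8 to 190 CPM in CCNE-TA, and 4 of 9 rose (Itgax, H2-Aa, Clec9a and Batf3). T and NK cell markers summed to 5.91 to 15.2 and 15.9 to 19.0 CPM, with 1 of 13 tested genes raised (Nkg7). Of 14 macrophage and Kupffer cell markers 3 fell (Emr1, Mrc1 and Lyz2) and 0 rose, with overlapping sums of 475 to 959 and 469 to 837 CPM, and of 4 tested neutrophil markers 0 were called. Endothelial markers fell in 6 of 10 (Kdr, Pecam1 and Cdh5 among them, 150 to 205 against 78.2 to 98.4 CPM), and bile duct markers rose in 7 of 9 (59.6 to 62.8 against 255 to 356 CPM). No marker of these lists was at 0 in all 6 liver libraries. Their part in the chemokine result was not tested.

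**Figure D3:**
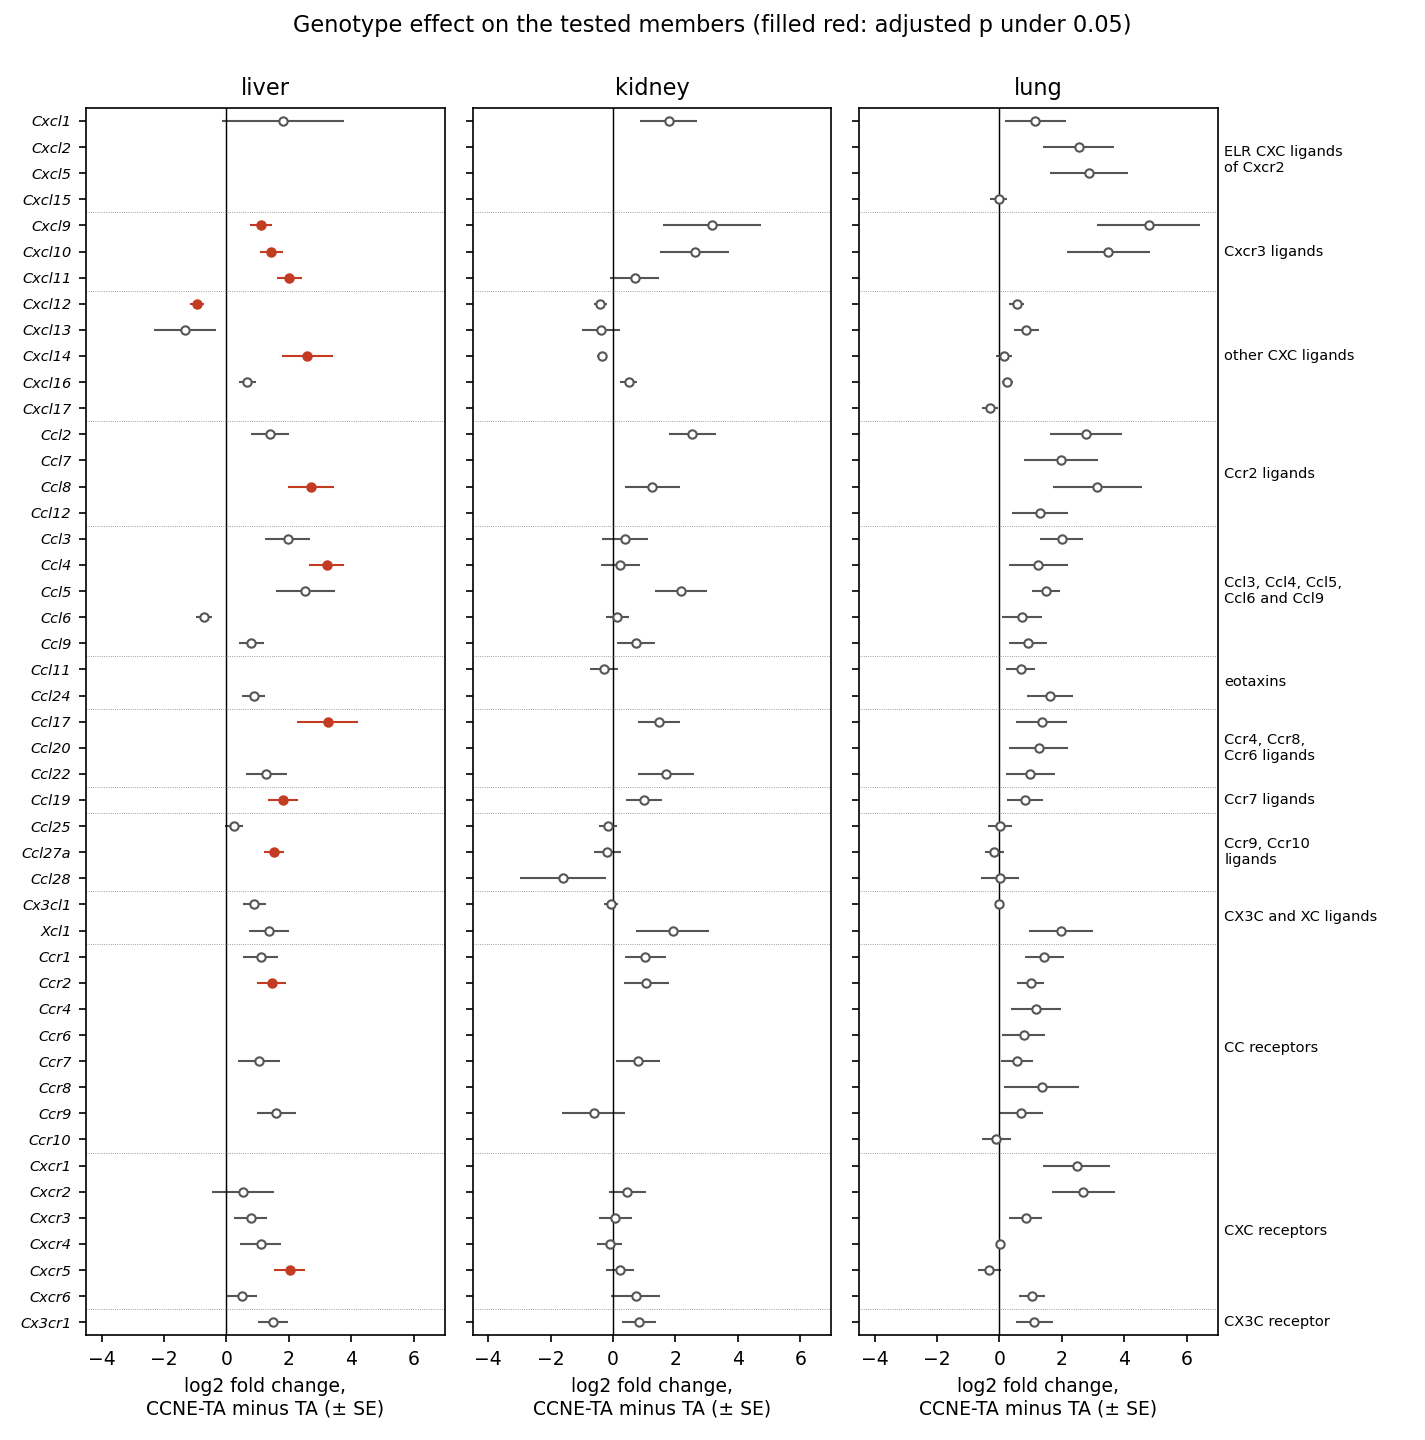
Log2 fold change of CCNE-TA minus TA with its SE for the tested members, by tissue and grouped by role, with members at an adjusted p under 0.05 filled in red. Red points are 11 to the right and 1 to the left of 0 in liver, and kidney and lung have none although most points lie right of 0.

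In kidney no chemokine or receptor gene changed by the test, and a single library carried most of the higher values. Of 35 tested members, 0 rose and 0 fell by edgeR, with backgrounds of 0.0131% and 0.0% of 15247 genes, and DESeq2 also called 0 (0.157% and 0.0262% of all genes). At an unadjusted p under 0.05 there were 2 members by edgeR, Ccl2 and Ccl5, against 2.13% of all genes. The median log2 fold change was 0.7 and 25 of 35 lay above 0. CCNE-TA 1 was the highest of the 6 libraries in 28 of 35 members (20.7% of all genes). Without it, 37 members passed the filter, the median was -0.33 and 9 lay above 0. All CCNE-TA libraries were above all TA libraries in 2 members (3.04% of all genes) and below in 1 (2.68%). With a replicate block, as same-numbered kidney libraries deviated together, the median was 0.43 and the counts stayed 0.

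Ccl2 (MCP-1), the main ligand of Ccr2, stood at 0.755, 0.217 and 0.895 CPM in TA kidney and 7.17, 1.42 and 2.08 CPM in CCNE-TA. Its groups did not overlap (log2 fold change 2.54 ± 0.75, adjusted p = 0.999), and it was 1.53 ± 0.64 without CCNE-TA 1. Ccl5 (RANTES), which attracts T cells and monocytes, was at 3.64, 5.78 and 4.65 CPM in TA and 50.7, 6.91 and 6.4 CPM in CCNE-TA, so CCNE-TA 2 and 3 lay just above the TA range (2.17 ± 0.83, and 0.5 ± 0.3 without CCNE-TA 1). Cxcl14 was lower without overlap, at 34.7, 34.4 and 39.9 CPM in TA and 29.5, 27.8 and 27.7 CPM in CCNE-TA (-0.36 ± 0.16). In this gene CCNE-TA 1 did not stand apart.

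Cxcl10 and Cxcl9, which interferons induce, had a wide gap between CCNE-TA 1 and the rest of the kidney libraries. Cxcl10 was at 3.15, 3.33 and 6.0 CPM in TA and 66.3, 6.3 and 4.36 CPM in CCNE-TA (2.62 ± 1.11, and 0.37 ± 0.38 without CCNE-TA 1). Cxcl9 was at 3.29, 2.1 and 4.61 CPM in TA and 84.4, 2.54 and 2.34 CPM in CCNE-TA, so the other two CCNE-TA libraries lay inside or near the TA range. Cxcl11 stood closer, at 2.97 CPM in CCNE-TA 1 and 0.41 to 1.51 CPM in the others (0.70 ± 0.78). Ccl17 had 0.444, 0.386 and 0.761 CPM in TA and 2.92, 0.723 and 0.801 CPM in CCNE-TA (1.47 ± 0.67, and 0.54 ± 0.60 without CCNE-TA 1). Cxcl1 had 1.95, 0.651 and 1.57 CPM in TA and 11.8, 1.53 and 0.961 CPM in CCNE-TA, and its sign turned without CCNE-TA 1, from 1.78 ± 0.91 to -0.13 ± 0.57. Ccl1, a ligand of Ccr8, had 0.355, 0.193 and 0 CPM in TA and 6.53, 0 and 0 CPM in CCNE-TA and was tested in no tissue.

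CCNE-TA 1 was the highest kidney library for all 11 tested receptors, and for 1 of the 6 that were not tested. Ccr2 was at 24.2 CPM in CCNE-TA 1 against 2.49 to 6.19 CPM in the other 5 libraries, Cx3cr1 at 15.2 against 2.84 to 6.13 CPM, and Cxcr6 at 3.52 against 0.355 to 1.43 CPM. Cxcr4 was closer, at 5.75 against at most 4.88 CPM. Of the ligands, Cx3cl1 was at 123 CPM in CCNE-TA 1 and 73.3 to 100.0 CPM in the others.

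Leukocyte markers were high in the same kidney library. T and NK cell markers summed to 56.6 CPM in CCNE-TA 1 and 8.7 to 15.7 CPM in the other 5 libraries, dendritic markers to 747 against 113 to 175 CPM, of which 694 CPM were H2-Aa, macrophage markers to 556 against 255 to 313 CPM, and neutrophil markers to 26.3 against 4.48 to 10.2 CPM. B and plasma cell markers, at 30.8 against 20 to 30.7 CPM, and monocyte markers, at 190 against 128 to 257 CPM, did not stand apart. Tubule markers were lowest in CCNE-TA 1, at 20500 against 23600 to 75600 CPM, whereas its bile duct list was at 7710 against 1700 to 2990 CPM and its stellate cell and fibroblast list at 703 against 471 to 535 CPM. The tubule sum rests largely on Kap, at 25700 CPM or more in TA kidney. It was highest in the male library of each group, at 75600 CPM in TA 3 and 40000 CPM in CCNE-TA 3. The bile duct list had a median log2 fold change of 0.11 in kidney, so its sum does not stand for each of its genes. No gene of these lists was called in kidney, and 1 neutrophil marker, Elane, was at 0 in all 6 libraries. Their part in the chemokine values was not tested.

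**Figure D4:**
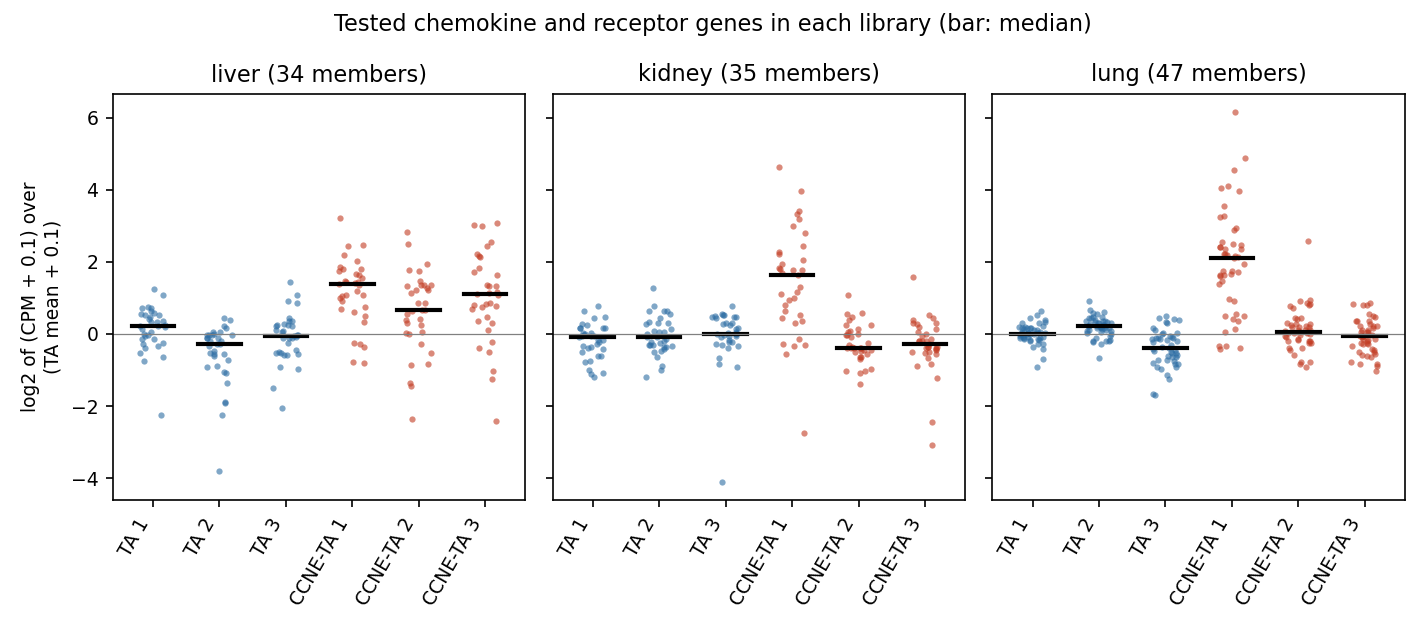
Log2 ratio of each tested member to the mean of the TA libraries of the same tissue, with 0.1 CPM added to both, in each library, with the median as a bar. In liver the medians of CCNE-TA 1 to 3 are 1.38, 0.67 and 1.1, whereas in kidney and lung CCNE-TA 1 alone is high, at 1.62 and 2.1, and the other CCNE-TA medians lie between -0.38 and 0.04.

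In lung no member was called either, and again CCNE-TA 1 held most of the high values. The lung fit did not call Ccne1 itself (edgeR adjusted p = 0.897), so its 0 calls do not show that the members were unchanged. Of 47 tested members, 0 rose and 0 fell by edgeR (0.00594% and 0.0% of 16823 genes), and DESeq2 called 0 (0.0892% and 0.999% of all genes). At an unadjusted p under 0.05 there were 6 members by edgeR, against 3.65% of all genes. The median log2 fold change was 1.05 and 41 of 47 lay above 0, and CCNE-TA 1 was the highest of the 6 libraries in 40 (27.9% of all genes). Without CCNE-TA 1 the median was -0.02 with 22 of 47 above 0, and without both it and TA 3 it was -0.07 with 21. All CCNE-TA libraries were above all TA libraries in 6 members (3.3% of all genes) and below in 0 (4.59%).

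Ccl5 was at 12.6, 12.4 and 7.16 CPM in TA lung and 50.6, 20.3 and 19.6 CPM in CCNE-TA. It did not overlap, and the log2 fold change was 1.49 ± 0.44 with all libraries (adjusted p = 1.0) and 0.89 ± 0.27 without CCNE-TA 1. Ccl3 was at 1.39, 0.755 and 0.691 CPM in TA and 7.64, 1.89 and 1.76 CPM in CCNE-TA (1.99 ± 0.69, and 0.94 ± 0.41 without CCNE-TA 1). Cxcr6, a receptor of resident T and NKT cells, was at 4.71, 5.26 and 2.64 CPM in TA and 13.2, 6.99 and 5.89 CPM in CCNE-TA (1.05 ± 0.41, and 0.61 ± 0.34). In each of these 3 genes CCNE-TA 2 and 3 also exceeded the TA libraries, by less than CCNE-TA 1 did.

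The ligands of Cxcr3 again had a wide range in lung. Cxcl9 was at 2.02, 1.91 and 0.888 CPM in TA and 122, 10.1 and 0.854 CPM in CCNE-TA (4.78 ± 1.66, and 1.76 ± 0.96 without CCNE-TA 1). CCNE-TA 3 was below the TA range. Cxcl10 was at 2.31, 2.74 and 1.11 CPM in TA and 63.6, 3.81 and 2.4 CPM in CCNE-TA (3.49 ± 1.32, and 0.59 ± 0.46). Cxcr2, the neutrophil receptor for Cxcl1 and its relatives, was at 2.26, 3.0 and 2.32 CPM in TA and 41.1, 4.45 and 3.3 CPM in CCNE-TA, without overlap (2.69 ± 1.0, and 0.62 ± 0.28). Its ligands Cxcl5 (13.4 CPM in CCNE-TA 1 and 0.592 to 0.769 in the others) and Cxcl2 (2.43 against 0.0494 to 0.368) were high in the same library.

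Several abundant members of lung had values close between the genotypes. Cxcl15 was at 1020 to 1370 CPM in TA and 834 to 1580 CPM in CCNE-TA (-0.02 ± 0.27), Cxcl17 at 46.9 to 89.4 and 47.8 to 68.2 CPM (-0.31 ± 0.26), and Cxcr4 at 58.6 to 68.4 and 62.6 to 65.7 CPM (0.02 ± 0.11). Cx3cl1 was at 55.8 to 68.1 and 54.4 to 67.1 CPM (-0.01 ± 0.14). Cxcl12 was above all TA libraries in 2 of the CCNE-TA libraries, at 141, 140 and 201 CPM in TA and 300, 169 and 235 CPM in CCNE-TA (0.55 ± 0.25), and Ccl6 ranged widely, at 138, 169 and 143 CPM in TA and 496, 170 and 73.4 CPM in CCNE-TA (0.72 ± 0.63). None of these 6 passed the test.

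Lung CCNE-TA 1 also held the highest leukocyte sums. T and NK cell markers reached 276 CPM against 52.6 to 103 CPM in the other 5 libraries, monocyte markers 4130 against 803 to 1360 CPM (of which Chil3 alone was 3610 against 290 to 651 CPM, and the other 5 markers 516 against 383 to 710 CPM), dendritic markers 1620 against 431 to 667 CPM, macrophage markers 7730 against 3200 to 6100 CPM, and neutrophil markers 635 against 141 to 312 CPM. B and plasma cell markers, at 426 CPM, lay within the other libraries at 84.5 to 459 CPM. No gene of these lists was called in lung, and none of them was at 0 in all 6 libraries. Their part in the chemokine values was not tested.

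**Figure D5:**
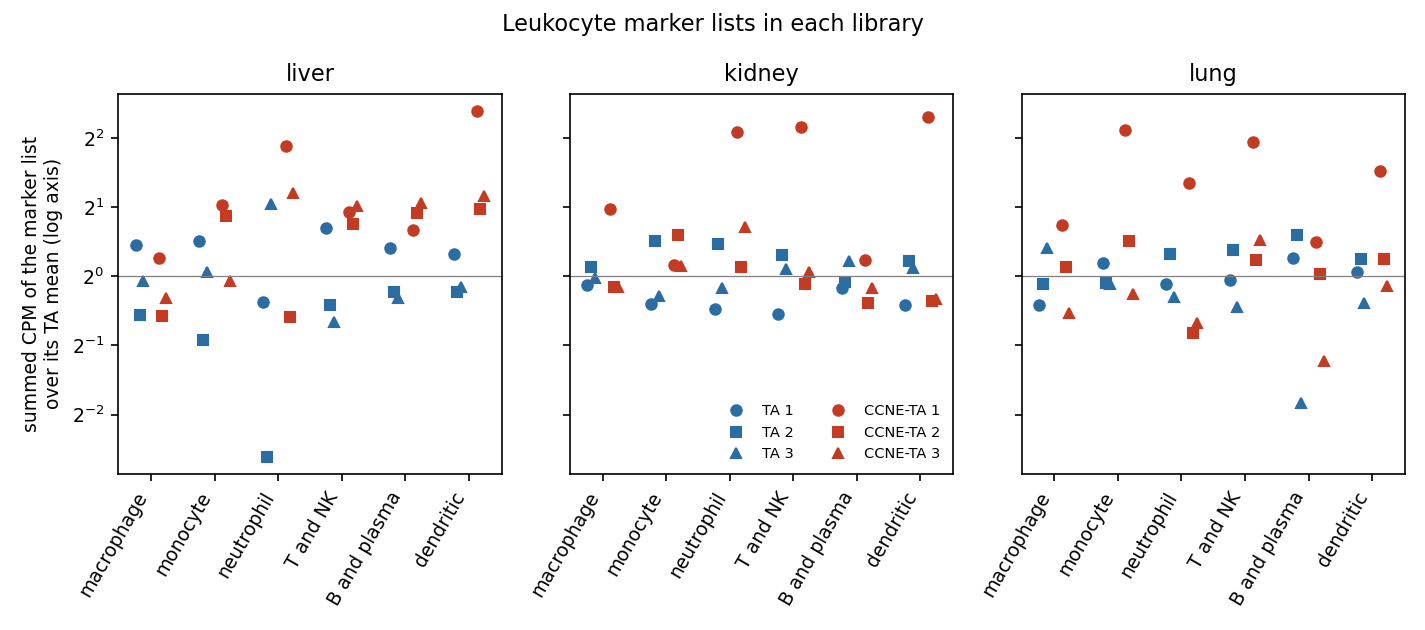
Summed CPM of 6 leukocyte marker lists over the mean of the TA libraries, in each library by tissue, on a log axis. CCNE-TA 1 is the highest library for the sum of dendritic markers in all 3 tissues and for T and NK markers in kidney and lung, whereas in liver the 3 CCNE-TA libraries lie together for T and NK markers, at 15.9 to 19.0 CPM. The dendritic sum of kidney CCNE-TA 1 is mostly H2-Aa, and the share of H2-Aa in the other tissues is not given here.

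Whether the genotype effect differed between tissues was tested as an interaction over 49 members. Between liver and kidney, 2 differed (9.52% of 17155 genes). Cxcl14 rose in liver with a log2 fold change of 2.58 against -0.37 in kidney, a difference of 2.95 ± 0.70 (SE, adjusted p = 0.021), and Cx3cl1 had 0.88 against -0.07 (0.95 ± 0.28, adjusted p = 0.0441). Between liver and lung, 4 differed (12.7% of all genes). Cxcl12 fell by 0.96 in liver and had 0.56 in lung, a difference of -1.52 ± 0.35 (adjusted p = 0.0149) that kept its call in all 22 alternatives. Cxcr5 had 1.99 against -0.31 (2.30 ± 0.65, adjusted p = 0.0314), Cxcl14 2.58 against 0.15 (2.43 ± 0.70, adjusted p = 0.0339) and Cx3cl1 0.88 against 0.0 (0.88 ± 0.28, adjusted p = 0.0498). Between kidney and lung, 0 differed by edgeR (0.00583% of all genes), with 2 at an unadjusted p under 0.05 (2.62% of all genes). For the ligands of Cxcr3 no difference between tissues passed the test.

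The calls on these differences varied with single libraries. That of Cxcl14 between liver and kidney was lost without liver CCNE-TA 3 (2.38, adjusted p = 0.051) or kidney CCNE-TA 2 (2.94, adjusted p = 0.0571). Those of Cxcl14 and Cxcr5 between liver and lung were lost in 7 and 10 of 22 alternatives, with adjusted p up to 0.0891 and 0.0849, and those of Cx3cl1 in 14 and 15, with adjusted p up to 0.109 and 0.117. No alternative turned a sign. With the replicate block, Cxcr5 (adjusted p = 0.0758 against lung) and Cx3cl1 (adjusted p = 0.0744 against kidney and 0.0884 against lung) were no longer called.

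Some genes around the chemokine system were called in liver, where 13.7% of all genes tested rose and 14.8% fell. Of 11 tested atypical receptors and related genes outside the naming rule, 3 rose and 1 fell in liver, with a median of 0.45. They were Mif, a cytokine that binds Cxcr2 and Cxcr4 (88.2 ± 8.37 to 197 ± 24.7 CPM, log2 fold change 1.16 ± 0.19, n = 3), Cklf (2.25 ± 0.47), the platelet chemokine Pf4 (1.62 ± 0.41), and Dpp4, a protease that cleaves chemokines (-0.70 ± 0.19). The scavenger receptors Ackr2, Ackr3 and Ackr4 were not called.

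Of 20 tested inducers of chemokine genes, 4 rose and 1 fell in liver, with a median of 0.48. The shares of all genes were 13.7% and 14.8%, for this list and the next. Relb (2.19 ± 0.629 to 6.28 ± 2.19 CPM, n = 3, log2 fold change 1.51 ± 0.36) and Nfkb2 (0.92 ± 0.20) encode the partners of the alternative NF-kappaB pathway, and Rel, of the canonical one, fell (-1.71 ± 0.46). Irf3, an activator of interferon genes (0.77 ± 0.17), and the cytokine Tnf (2.14 ± 0.65, at 0.247 ± 0.0899 CPM in TA) also rose. Ifng did not pass the filter. Of 26 genes of signalling below the receptors, 3 rose (Gnb2, Adrbk2 and Arrb2) and 1 fell, the kinase Lyn (-0.89 ± 0.16), with a median of 0.25. In kidney and lung 0 genes of these 3 lists were called, with medians of 0.04 and 0.26, 0.51 and 0.51, and 0.17 and 0.32 for the lists in the order given.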

How the data were processed

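RNA of 18 libraries was measured. The authors deposited raw counts of reads for each gene symbol. Per the submitters' processing notes, TopHat2 2.0.14, Bowtie2 2.2.6 and featureCounts 1.4.6 were used with mm10. The annotation, the strand setting and the treatment of reads with several alignments are not given in the sources used here. Among counts of 1 to 20, 64.2% to 71.2% were even. Whether each read of a pair was counted is not given in the sources used here. If so, counts stand for fewer fragments, which bears on low counts and on bounds taken from a floor of 3 counts.

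Each tissue was fitted with edgeR 4.0.16 (R 4.3.3; filterByExpr with a minimum count of 10, TMM scaling, robust quasi-likelihood test), with Benjamini-Hochberg adjustment over all genes tested and a threshold of 0.05. Differences between tissues were interaction terms in 1 fit of 18 libraries, and control tissues were compared in a fit of 9. CPM are TMM-scaled within a tissue. Exon lengths, from GENCODE M21, were found for 98.5% of symbols. Fits were tested on simulated data. Alternatives were DESeq2 1.42.0, limma-voom (limma 3.58.1), other scalings, no filter, 1 common fit, a replicate block, Xist as a covariate, length and GC offsets, and leaving out each library.

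Same-numbered libraries correlated by 0.308, 0.486 and 0.34 in kidney. No label states a pairing, and whether the numbers mark pairs was not tested. TA 3 and CCNE-TA 3 were the male kidney libraries of their groups, with Xist at 2.73 and 1.54 CPM, so number and sex cannot be fully told apart there.

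The members and gene lists were chosen with earlier results of these data known. Values in every library are given for called members and the 6 of lowest p in other tissues, and levels for the 3 highest members of each control tissue. Other genes were named as up to 4 called per pathway list, up to 3 per marker list, and Ccne1. Members named beyond this, the markers named as called, and Ifng and the Ackr genes were chosen after their values were seen. Some genes that were counted are not reported here by name.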

Additional observations from a re-analysis of the deposited data

Results flagged for a closer look

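The effect of the CCNE-TA genotype differed between tissues, by an interaction term in 1 edgeR fit of all libraries, for 6 pairs of member and tissues. These are 2 of 49 members between liver and kidney, where 9.52% of all genes differed, and 4 of 49 between liver and lung, where 12.7% did, so both counts lie below the background. The difference was 2.95 (log2, liver minus kidney) for Cxcl14 and 0.95 for Cx3cl1. Liver minus lung gave -1.52 for Cxcl12, 2.43 for Cxcl14, 2.30 for Cxcr5 and 0.88 for Cx3cl1. Of these, the call on Cxcl12 held in all 22 alternatives, and each of the others was lost in some of them.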

How the results depend on the processing

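In liver, 11 members were raised and 1 lowered. Leaving out 1 library gave 2 to 10 raised and 0 to 1 lowered, Xist as a covariate gave 6 raised, and DESeq2 gave 2 lowered. For the difference between liver and kidney, 2 members were called, 0 to 4 when 1 library was left out and 8 by DESeq2. For liver and lung, 4 were called, 1 to 4 when 1 library was left out and 7 by DESeq2. The shares of all genes called in these alternatives are not given here, so their counts cannot be set against a background. With 1 library left out, Cxcl1 in kidney ran from -0.13 to 2.27, the kidney median from -0.33 to 1.03 and the lung median from -0.02 to 1.41, each negative value being the one without CCNE-TA 1. Without both CCNE-TA 1 and TA 3, an alternative chosen after seeing the data, the lung median was -0.07. The causes were not tested. Upper quartile scaling moved the median of all liver genes from 0.02 to 0.21 and their raised and lowered shares from 13.7% and 14.8% to 18.9% and 9.9%, and the members' count to 12 raised and 1 lowered.

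The replicate block gave 12 raised and 1 lowered in liver (11.3% and 12.7% of all genes), and 0 calls in kidney and lung. Same-numbered libraries correlated by 0.2, -0.002 and 0.083 in liver. In lung the correlations were -0.477, -0.105 and -0.592, so they gave no clear sign of pairing in lung or liver. With the block, 1 member differed between liver and kidney, and the share of all genes that differed in that fit is not given here. Ccl8 and Ccl17 in TA liver rest on 8 and 9 counts in all.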

Other observations

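Ccl28, an epithelial ligand of Ccr10, had the widest SD of the tested members among kidney controls. It stood at 16.9, 83.2 and 1.88 CPM in TA 1 to 3 and at 5.02, 24.8 and 3.97 CPM in CCNE-TA 1 to 3 (log2 fold change -1.59 ± 1.38, edgeR adjusted p = 0.999). TA 3 and CCNE-TA 3, the male libraries by Xist at 2.73 and 1.54 CPM, were the lowest of their groups, and the 4 female libraries had Xist at 575 to 1240 CPM.

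Ccl1, a ligand of Ccr8 that was tested in no tissue, was highest in library CCNE-TA 1 of each tissue, at 0.432 CPM in liver, 6.53 in kidney and 3.25 in lung. The labels do not say whether these 3 libraries came from 1 mouse. Equal numbers do not always mark 1 mouse, since TA 2 was male by Xist in liver, at 0.27 CPM, and female in kidney and lung, at 1240 and 720 CPM.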
